A study of Mus musculus with 6 samples.

Results

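miR-17 was returned to mouse CD4+ T cells that lack the miR-17-92 cluster, and the messenger RNA of these cells was compared with that of cells of the same genotype given a mock retrovirus. The members were the 2 arrays titled as deficient with miR-17 and the 2 titled as deficient with mock, 4 of the 6 arrays of the series, each read over all 22626 non-control probe sets. The other 2 arrays held wild-type B6 cells with the mock virus. Both deficient groups carried the genotype miR-17-92f/f CD4-cre+ on B6, in which Cre driven by the Cd4 gene removes the floxed cluster in T cells. All cultures began as flow-sorted CD4+CD25- T cells, stimulated on bound anti-CD3 and anti-CD28, infected, and lysed for RNA 5 days later, in medium with 10% serum at 7% CO2. Whether infected cells were selected before lysis is not given in the sources used here, so each array averages whatever cells the culture held. Age and sex of the mice are likewise not given. In such bulk RNA, fewer cells of a type and less RNA per cell cannot be told apart. The difference was taken within each replicate number of the titles (replicate 1 minus replicate 1, replicate 2 minus replicate 2), and genes and pathways that differed alike in both are described.

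A miRNA guides a silencing complex to messenger RNAs, mostly through pairing of its seed, bases 2 to 8, with sites in their 3′ untranslated regions, and lowers translation and RNA level of the target. The miR-17-92 cluster encodes several miRNAs from one transcript, is induced on T cell activation, and is known to promote T cell proliferation and survival. Its members fall into seed families, so a vector for miR-17 supplies the seed of miR-17-5p and not those of miR-18, miR-19 and miR-92. The same precursor RNA also holds miR-17-3p, which has another seed and was not examined here. The sequences below are shown because the seed, in capitals, decides which messenger RNAs the returned miRNA can pair with. They are from RefSeq (build GRCm38.p6), 5′ to 3′. The first is the returned miRNA, at chr14:115043684-115043706 on the plus strand. The next 5 are relatives that share its seed, of which miR-20a is encoded in the deleted cluster and the other 4 elsewhere in the genome. The last 3 are cluster members with other seeds.
miR-17-5p: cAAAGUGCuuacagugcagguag
miR-20a-5p: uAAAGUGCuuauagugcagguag
miR-106a-5p: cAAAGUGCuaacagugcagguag
miR-106b-5p: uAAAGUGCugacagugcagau
miR-20b-5p: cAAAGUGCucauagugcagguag
miR-93-5p: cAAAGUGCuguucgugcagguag
miR-18a-5p: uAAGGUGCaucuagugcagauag
miR-19a-3p: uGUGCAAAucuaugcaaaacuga
miR-92a-3p: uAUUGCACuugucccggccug
Of 1679 mature miRNA names in the table, 7 carried the seed of miR-17-5p, these 6 and miR-6383. The level of the miRNA and the deletion itself were not analysed here, so the labels were not checked by the targeted locus.

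On the log2 scale the median probe set read 5.69 to 5.75 depending on the array, and the lower quartile was 3.98 to 4.16. The 10 CD4+ T cell markers measured all lay above the lower quartile, and their summed level was 13.99 to 14.06 in deficient mock and 13.91 to 13.99 in deficient miR-17 cells. Of 9 natural killer cell markers, 7 lay below the lowest array's lower quartile in both groups. The summed level of 9 dendritic cell and antigen presentation markers was 9.56 to 9.60 with mock and 9.78 to 9.87 with miR-17. Batf3, which activated T cells also express, had the largest difference of them, 0.87 ± 0.59 (SE, n = 2 arrays per group). Standard errors here and below come from a fit of all 6 arrays, so spread between the wild-type arrays enters them as well. The sum of 11 macrophage markers was 10.13 to 10.16 with mock and 10.02 to 10.12 with miR-17. B cell and CD8 marker sums overlapped between the groups or differed by under 0.2. The part of these markers in the results below was not tested.

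With miR-17 returned, no probe set passed limma at an adjusted p under 0.05, so the differences below are given as measured values and none is a call. That fit leaves out the replicate number. With the number as a block, limma called 4 probe sets higher and 7 lower at an adjusted p under 0.05, and on the 4 deficient arrays alone, a fit added after seeing the data, 164 and 129. The titles do not say what the number marks, so the fit without it was kept. The smallest adjusted p was 0.581, and the median standard error over 12393 genes was 0.14 log2 units. At an unadjusted p under 0.05 the same limma fit gave 421 probe sets higher (1.86%) and 408 lower (1.8%), 3.66% together. Represented by 1 probe set each, 246 genes (1.98%) were higher and 241 (1.94%) lower at that level, 3.93% together. An exact permutation test of 2 against 2 arrays cannot give a two-sided p below 0.333. The labels call the arrays biological replicates without naming animals, so p-values measure only the spread between these samples.

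Direction was the same in both replicate numbers for 7330 of 12393 genes (59.1%), 3864 of them higher (31.2%) and 3466 lower (28%). A difference of 0.25 or more in both numbers was found for 307 genes higher (2.48%) and 253 lower (2.04%). At 0.5 or more in both, 47 genes were higher (0.379%) and 34 lower (0.274%). Across genes, which are not independent replicates, the replicate 1 and replicate 2 differences correlated at Pearson's r of 0.38. In the brighter 6197 genes r was 0.56 and in the dimmer 6196 it was 0.21. Most differences were small: their SD over genes was 0.19 in replicate 1 and 0.20 in replicate 2, and the median gene differed by 0.01 and -0.00.

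**Figure D1:**
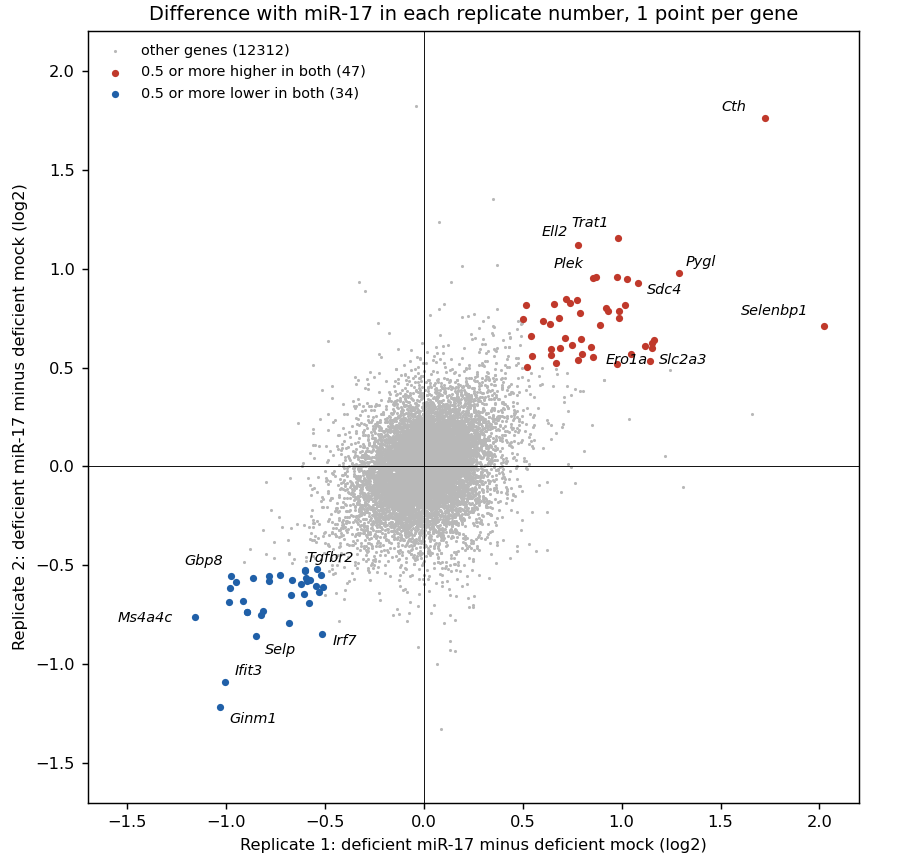
Each point is 1 gene, with the replicate 1 difference (deficient miR-17 minus deficient mock, log2) on the horizontal axis and the replicate 2 difference on the vertical axis. The 47 red genes lay 0.5 or more higher in both numbers and the 34 blue genes 0.5 or more lower in both. Cth lies at the upper right, and Ginm1 and Ifit3 at the lower left.

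Commonly cited targets of the miR-17 family leaned to the lower side, by small amounts. Of 46 measured, 26 (56.5%) were lower in both replicate numbers and 7 (15.2%) higher in both, against 28% and 31.2% of all genes. Groups did not overlap for 15 of them on the lower side, where 13.9% of all genes did so, and for 4 on the higher side, against 15% of all genes. The median of the list was -0.10, with -0.08 in replicate 1 and -0.09 in replicate 2. Over 15 settings of the analysis it ranged from -0.12 to -0.08. Several of these settings, such as the replicate block, no trend or a wild-type array left out, could not change the median. At an unadjusted limma p under 0.05, 6 were lower (13%) and 1 higher (2.17%), against 1.94% and 1.98% of all genes. The 5 that lay at least 0.25 lower in both numbers were Tgfbr2, Irf1, Rbl2, Rbl1 and Ncoa3. Irf1 is also counted below among Th1 genes, and Hif1a among hypoxia genes.

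Tgfbr2, the type II receptor that binds TGF-beta, read 9.09 and 8.79 in the deficient mock arrays and 8.42 and 8.21 with miR-17. Both miR-17 arrays lay below both mock arrays, and the differences were -0.66 and -0.58 in replicates 1 and 2. The fitted difference was -0.62 ± 0.13 (SE, n = 2 per group), with an unadjusted limma p of 0.0016 and an adjusted p of 0.957. Tgfbr2 has 3 probe sets, whose differences ran from -0.62 to 0.10, and averaged over them it was -0.20. In the wild-type arrays it read 9.43 and 9.54, above all 4 deficient arrays. The wild-type levels here and below stand beside a comparison that uses the same deficient mock arrays, and are a description only.

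Genes of the retinoblastoma and E2F circuit, which governs entry into S phase, were among the lower targets. Rbl2 (p130), a pocket protein that holds E2F target genes silent in resting cells, read 7.84 and 7.85 with mock and 7.36 and 7.45 with miR-17, a difference of -0.44 ± 0.11. Rbl1 (p107), its close relative, read 9.66 and 9.54 with mock and 9.25 and 9.17 with miR-17, a difference of -0.39 ± 0.09. E2f1, a transcription factor that pocket proteins restrain and a long-known target of this cluster, read 6.89 and 7.03 with mock and 6.64 and 6.55 with miR-17, a difference of -0.36 ± 0.13. In each of these 3 genes both miR-17 arrays lay below both mock arrays. Unadjusted limma p-values were 0.004 for Rbl2, 0.0032 for Rbl1 and 0.022 for E2f1, each with an adjusted p of 1. The second probe set of Rbl1 differed by -0.00, while those of Rbl2 and E2f1 differed by -0.32 and -0.58.

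The 3 genes stood differently to wild type. Rbl1 was 9.17 in both wild-type arrays and E2f1 6.34 and 6.37, so in both genes the deficient mock arrays were the highest and miR-17 arrays lay nearer the wild-type level. Rbl2 was 8.30 and 8.40 in wild type, so its miR-17 arrays were the farthest from wild type. Over the 19 measured genes of the pocket protein, E2F and cyclin list, 8 were lower in both numbers (42.1%) and 5 higher in both (26.3%). Of all genes 28% were lower and 31.2% higher in both. The list's median was -0.01, which ran from -0.08 to 0.02 when 1 array was left out. Cyclin E2 (Ccne2), which drives Cdk2 at the start of S phase, read 7.50 and 7.33 with mock and 6.62 and 6.92 with miR-17. E2f5 lay on the other side, at 5.55 and 5.57 with mock and 5.91 and 6.03 with miR-17, but its other probe set differed by -0.00.

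Other listed targets were lower with smaller margins. Ncoa3, a nuclear receptor coactivator, read 8.41 and 8.38 with mock and 8.12 and 7.93 with miR-17, a difference of -0.37 ± 0.13. Ddx5, an RNA helicase, differed by -0.25 ± 0.09, and its 6 probe sets all lay on the lower side, from -0.32 to -0.07. Irf1, a transcription factor of the interferon gamma response, differed by -0.44 ± 0.21, with replicate differences of -0.50 and -0.39 but overlapping groups. Hif1a, the oxygen-regulated subunit of hypoxia-inducible factor, differed by -0.36 ± 0.16, and its 4 probe sets ran from -0.37 to 0.23.

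Several cited targets did not read lower. Creb1, a cAMP-responsive transcription factor reported as a miR-17 target in T cells, was 6.30 and 6.15 with mock and 6.41 and 6.26 with miR-17. The groups overlapped, the difference was 0.10 ± 0.14, and the 4 probe sets of Creb1 ran from -0.19 to 0.10. Bcl2l11 (Bim), a pro-death BCL2 family member, differed by -0.23 in replicate 1 and 0.57 in replicate 2. Cdkn1a (p21), an inhibitor of cyclin-dependent kinases, differed by 0.08 and -0.24, so neither gene had 1 direction. Vegfa, a growth factor for blood vessels and a hypoxia-induced gene, lay higher, at 5.79 and 6.29 with mock and 6.46 and 6.81 with miR-17. Its difference was 0.60 ± 0.25, with both miR-17 arrays above both mock arrays.

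Lists for seeds that the vector does not return had fitted medians closer to all genes. Of 14 measured miR-19 family targets 5 were lower (35.7%) and 3 higher (21.4%) in both numbers, with a median of -0.02. In replicates 1 and 2 that median was -0.11 and -0.05, so in replicate 1 it lay below that of the miR-17 family list. At least 0.25 lower in both were 2 of the 14 (14.3%), against 10.9% of the miR-17 family list. Tgfbr2, Bcl2l11, Tnfaip3 and Ccnd1 are in both lists. Of 17 targets of miR-92a and miR-18a, 7 were lower (41.2%) and 5 higher (29.4%) in both, with a median of -0.01. That list shares Tgfbr2, Hif1a, Hipk3 and Phlpp1 with the miR-17 family list. Leaving out 1 array put both medians on either side of 0, between -0.07 and 0.04. The difference between these lists and the miR-17 family list was not tested.

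**Figure D2:**
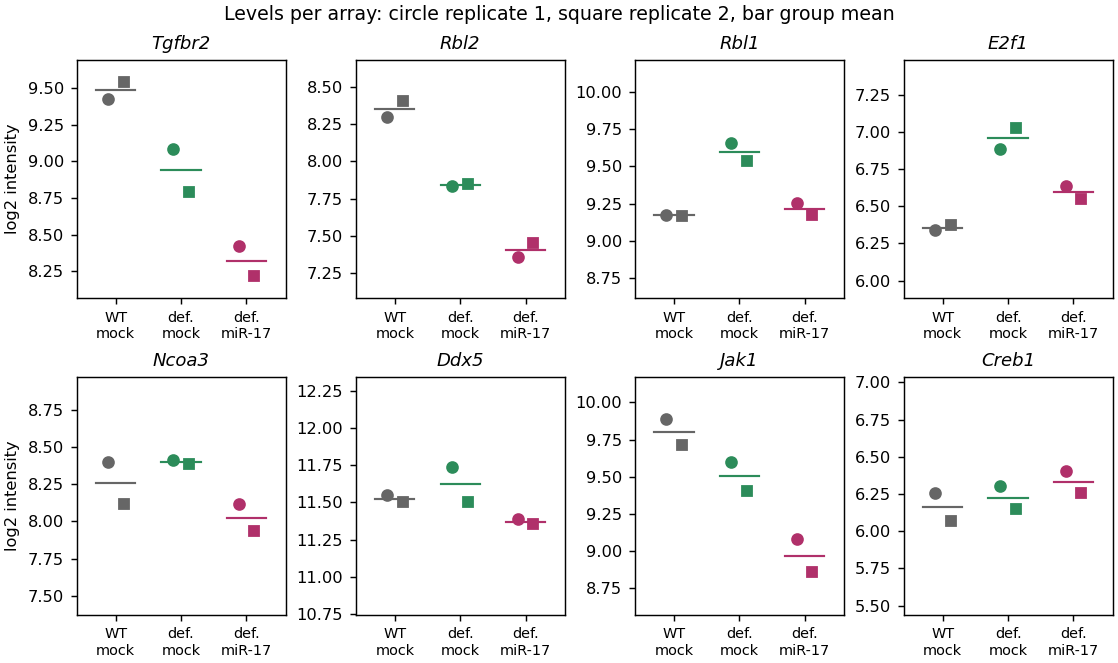
Each panel is 1 gene, with the log2 intensity of each array on the vertical axis and the 3 groups on the horizontal axis (WT, wild type; def., deficient). Circles are replicate 1, squares replicate 2 and bars group means, and every panel spans at least 1.6 log2 units. In all panels but Creb1 both miR-17 arrays lie below both deficient mock arrays.

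Genes induced by type I interferon were the most one-sided of the lists with more than 20 genes. Interferon signals through receptor kinases that include Jak1 to a complex that contains Stat2 and Irf9, which binds interferon-stimulated response elements and switches on antiviral genes. Of 28 such genes measured, 22 (78.6%) were lower in both replicate numbers with miR-17 and 2 higher in both (7.14%), against 28% and 31.2% of all genes. The median was -0.24, with -0.25 in replicate 1 and -0.26 in replicate 2. At least 0.25 lower in both numbers were 12 of the 28, where 2.04% of all genes were, and groups did not overlap on the lower side for 7, where 13.9% of all genes did so. At an unadjusted limma p under 0.05, 3 were lower (10.7%) and 1 higher (3.57%), against 1.94% and 1.98% of all genes.

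At the response end, Ifit3, an antiviral protein with tetratricopeptide repeats, read 5.22 and 5.56 with mock and 4.21 and 4.47 with miR-17. Both miR-17 arrays lay below both mock arrays and close to the wild-type 4.52 and 4.47, and the difference was -1.05 ± 0.17, with an unadjusted limma p of 2.6e-04 and an adjusted p of 0.581. Ifit1, of the same family, read 5.71 and 6.67 with mock and 4.81 and 5.93 with miR-17, so its replicate differences of -0.90 and -0.74 were alike while the groups overlapped. Rtp4, another interferon-induced gene, read 7.73 and 8.49 with mock, 6.78 and 7.91 with miR-17, and 5.24 and 4.38 in wild type. Irf7, a transcription factor that amplifies the response, differed by -0.51 and -0.85. Zbp1, a sensor of nucleic acids, differed by -0.54 and -0.52. For Ifit1 and Rtp4 the gap between replicate numbers was as large as the difference with miR-17, and their standard errors were 0.42 and 0.43.

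At the signalling end, Irf9, the DNA-binding subunit of the factor that interferon activates, read 8.56 and 8.48 with mock and differed by -0.67 and -0.49 in replicates 1 and 2. The groups did not overlap, wild type read 8.27 and 8.21, and the difference was -0.58 ± 0.10. Stat2, its partner, differed by -0.26 and -0.47. Jak1, which serves interferon receptors and those of the common gamma chain cytokines, read 9.60 and 9.41 with mock and 9.08 and 8.86 with miR-17. Its difference was -0.53 ± 0.12, unadjusted limma p 0.0024 and adjusted p 1. Wild-type arrays read 9.89 and 9.71, above all deficient arrays, and its 3 probe sets ran from -0.62 to -0.06.

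The interferon list depended on which arrays were set against each other. Replicate 2 arrays read higher than replicate 1 arrays in both deficient groups for genes such as Ifit1, Rtp4 and Irf7. Without deficient mock replicate 2 or without deficient miR-17 replicate 1, the list's median was 0.08. Without deficient mock replicate 1 it was -0.55, and without deficient miR-17 replicate 2 it was -0.62. Within each replicate number it lay near -0.25. Of the 2 exceptions that were higher in both numbers, Ifi204 differed by 0.14 and 0.22 and Ifih1 by 0.00 and 0.20.

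**Figure D3:**
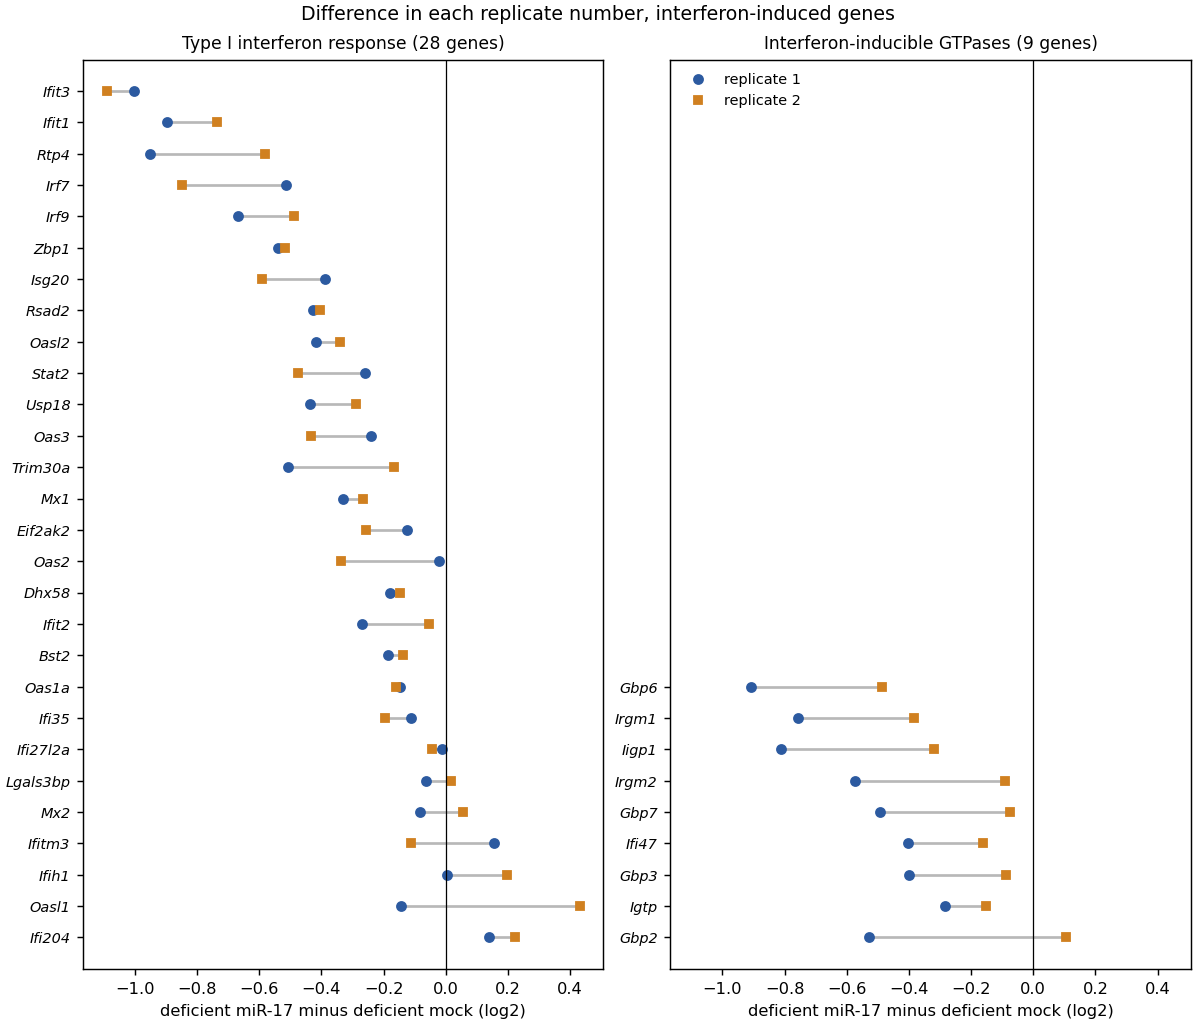
Each line is 1 gene and each point its difference in 1 replicate number (deficient miR-17 minus deficient mock, log2, horizontal axis), with circles for replicate 1 and squares for replicate 2. In the left panel 22 of 28 type I interferon genes have both points left of 0, and in the right panel 8 of 9 GTPase genes do.

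Interferon-inducible GTPases, which defend cells against intracellular pathogens and are induced mainly by interferon gamma, were lower too. Of 9 measured, 8 (88.9%) were lower in both numbers and none higher in both, against 28% and 31.2% of all genes. Groups did not overlap on the lower side for 7, where 13.9% of all genes did so. The median was -0.28, but it was -0.53 in replicate 1 and -0.15 in replicate 2, and -0.45 without either replicate 2 array of the deficient groups. Irgm1 read 9.27 and 9.11 with mock and 8.51 and 8.72 with miR-17. Gbp6 read 8.83 and 8.70 with mock and 7.93 and 8.21 with miR-17, and in both genes the groups did not overlap. Gbp8, a guanylate-binding protein outside the list, differed by -0.76 ± 0.14. The exception in the list was Gbp2, at -0.53 and 0.11.

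The upstream sequence of several of these genes holds the core of the interferon-stimulated response element. The letters GAAA, then any 2 bases, then GAAA were searched on both strands in the 250 bases before each gene's start in RefSeq (GRCm38.p6). They occurred in 2.98% of 32851 promoter records and in 3.35% of 9887 measured genes with a record. They occurred in 8 of 19 interferon list genes with a record (42.1%) and in 6 of 7 GTPase genes (85.7%). A match describes the letters only. Stretches were sought for several interferon-related genes at least 0.25 lower in both numbers, and those with a match are shown, from Ifit3, Ifit1 and Irgm1. Irf7, Zbp1, Rtp4, Irf9, Gbp6, Ifi209 and Cmpk2 were sought as well and gave none, for want of a match or of a record. The stretches run 5′ to 3′ on the gene's strand, with the matched letters (either strand) in capitals.
Ifit3 (chr19:34583353-34583436, plus strand): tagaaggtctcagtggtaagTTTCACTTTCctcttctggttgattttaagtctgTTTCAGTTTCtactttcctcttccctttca
Ifit1 (chr19:34640765-34640833, plus strand): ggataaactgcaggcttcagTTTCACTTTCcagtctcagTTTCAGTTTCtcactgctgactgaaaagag
Irgm1 (chr11:48871421-48871470, minus strand): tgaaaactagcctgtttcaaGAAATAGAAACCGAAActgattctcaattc
Each window held 2 matches, and in Irgm1 they overlapped. In Ifit3 and Ifit1 the same pair of matched strings follows one after the other, at 156 and 122 bases before the start in Ifit3 and at 104 and 85 in Ifit1.

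Antigen processing and Th1 genes, which interferon gamma and its regulators also control, leaned the same way by smaller amounts. Of 11 class I presentation genes, 8 (72.7%) were lower in both numbers and 1 higher in both, against 28% and 31.2% of all genes. Their median was -0.16, and none reached 0.25 in both. Without deficient mock replicate 2 that median was -0.09, and without deficient miR-17 replicate 1 it was -0.10. Tap2, a subunit of the peptide transporter, read 8.98 and 8.96 with mock and 8.74 and 8.60 with miR-17. The class I heavy chains differed little: H2-K1 by -0.01 and H2-D1 by 0.03. Of 22 Th1 genes, 14 (63.6%) were lower in both and 2 higher in both, with a median of -0.12, which was -0.08 without deficient mock replicate 1.

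Ifng, the signature Th1 cytokine, read 4.87 and 4.34 with mock and 4.31 and 4.05 with miR-17, near the bottom of the range, and 5.90 and 5.29 in wild type. Its difference was -0.42 ± 0.25. Tbx21 (T-bet), the Th1 master regulator, differed by -0.33 and -0.19, with overlapping groups. Il18rap, a chain of the IL-18 receptor, differed by -0.38 and -0.58. The natural killer marker sum beside this list was 7.00 to 7.25 with mock and 6.79 to 7.03 with miR-17, and its part in the result was not tested.

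Glycolysis was the most one-sided list on the higher side. Activated T cells are known to take up glucose and ferment it to lactate, and hypoxia-inducible factor raises many of the genes involved. Of 16 measured genes, 15 (93.8%) were higher in both numbers with miR-17 and 1 lower, against 31.2% and 28% of all genes. The median was 0.29, with 0.36 in replicate 1 and 0.19 in replicate 2. Groups did not overlap on the higher side for 10, where 15% of all genes did so. At an unadjusted limma p under 0.05, 4 were higher (25%), against 1.98% of all genes. The median kept its sign in all 15 settings, from 0.13 to 0.38. It was lowest without deficient mock replicate 1 and highest without deficient mock replicate 2. Settings that alter only the standard error, or leave out a wild-type array, could not change it.

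At the entry of the pathway, Slc2a3, the high-affinity glucose transporter GLUT3, read 10.81 and 11.30 with mock and 11.96 and 11.90 with miR-17. Both miR-17 arrays lay above both mock arrays and below the wild-type 12.40 and 12.48. The difference was 0.88 ± 0.14, unadjusted limma p 2.6e-04 and adjusted p 0.581, and its 4 probe sets ran from -0.07 to 0.94. Hk2, the hexokinase that traps glucose in the cell, differed by 0.54 and 0.26 with overlapping groups. In the middle, aldolase C (Aldoc) differed by 0.71 and 0.35. At the exit, Slc16a3, the lactate exporter MCT4, read 5.91 and 6.24 with mock and 6.44 and 6.65 with miR-17, a difference of 0.47 ± 0.16. Ldha, which makes lactate, differed by 0.25 and 0.04. The single member lower in both numbers was Pfkp, the platelet-type phosphofructokinase, at -0.08 and -0.34.

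Other hypoxia-induced genes followed in part. Of 22 measured, 14 (63.6%) were higher in both numbers and 3 lower in both, against 31.2% and 28% of all genes. The list's median was 0.24. It was 0.15 without deficient mock replicate 1 and 0.39 without deficient mock replicate 2. Ero1a, which oxidises protein disulphide isomerase in the endoplasmic reticulum, read 8.46 and 9.34 with mock and 9.57 and 9.95 with miR-17. P4ha2, a collagen prolyl hydroxylase subunit, read 5.21 and 6.29 with mock and 6.35 and 6.82 with miR-17. In both genes the miR-17 arrays lay above the mock arrays, yet the mock arrays were about as far apart, and the differences were 0.86 ± 0.33 and 0.84 ± 0.41. Egln1, the main oxygen-sensing hydroxylase, differed by 0.41 and 0.31. Hif1a itself was on the lower side, as given above, together with Pdk1 at -0.06 and -0.08 and metallothionein Mt2 at -0.28 and -0.53. The hypoxia-related genes Epas1, Hilpda and Mgarp, outside the list, differed by 0.70, 0.75 and 0.72, and were picked after their values were seen.

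**Figure D4:**
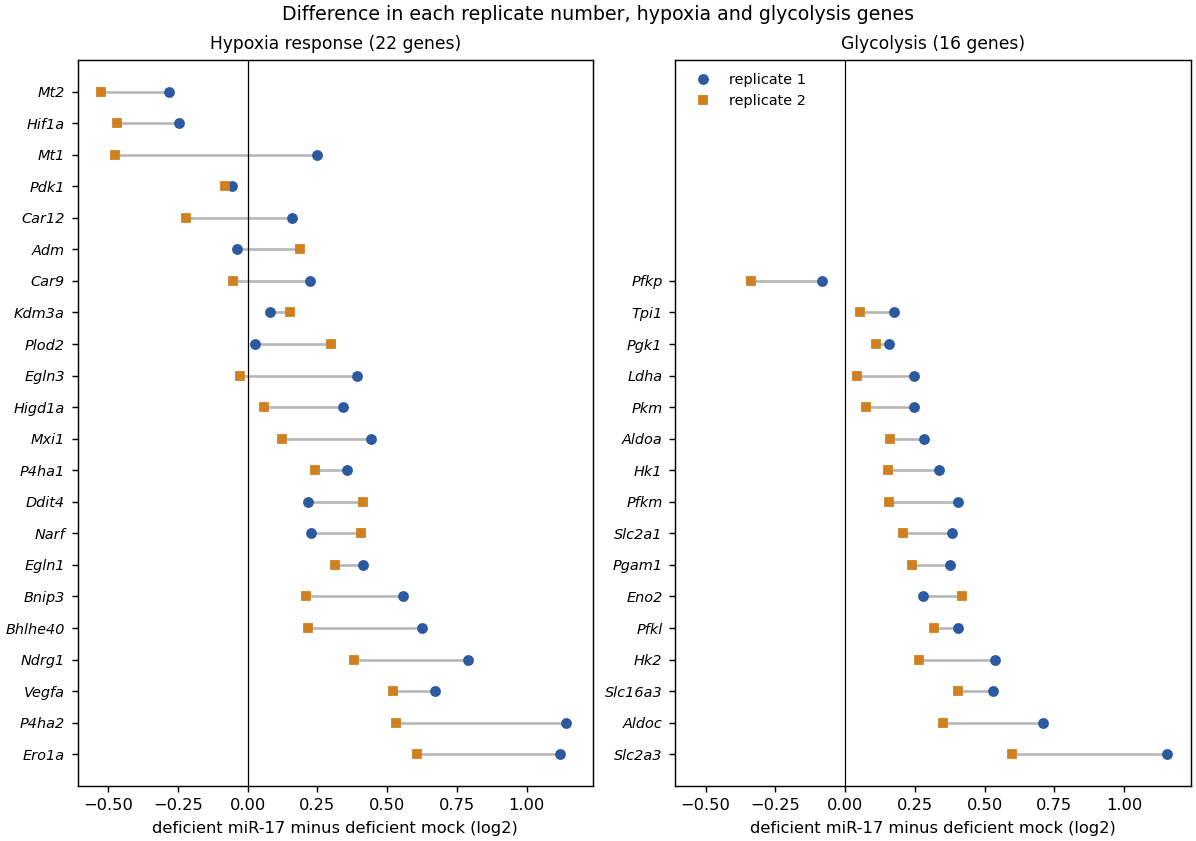
Each line is 1 gene and each point its difference in 1 replicate number (deficient miR-17 minus deficient mock, log2, horizontal axis), with circles for replicate 1 and squares for replicate 2. In the right panel 15 of 16 glycolysis genes have both points right of 0, and in the left panel 14 of 22 hypoxia genes do.

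The core letters of the hypoxia response element, ACGTG, were searched in the same windows on both strands. They occurred in 23% of the 9887 measured genes with a record, in 9 of 15 glycolysis genes (60%) and in 12 of 19 hypoxia genes (63.2%). They also occurred in 16 of 39 miR-17 family targets (41%). The stretches below are from the 3 hypoxia list genes with a difference above 0.5 in both numbers, with the matched letters (either strand) in capitals.
Ero1a (chr14:45318611-45318655, minus strand): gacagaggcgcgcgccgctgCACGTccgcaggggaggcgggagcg
P4ha2 (chr11:54100826-54100870, plus strand): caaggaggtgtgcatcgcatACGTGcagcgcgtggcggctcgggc
Vegfa (chr17:46025350-46025394, minus strand): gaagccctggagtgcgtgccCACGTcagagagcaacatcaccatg
Each window shown held 1 match, at 63 bases before the start in Ero1a, 78 in P4ha2 and 211 in Vegfa. Matches were also found in Egln1 and Hk2. Slc2a3, Pfkl and Ndrg1 were sought as well and gave none, for want of a match or of a record.

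Amino acid supply and stress genes driven by Atf4 leaned higher. Atf4 is the transcription factor made when amino acids run short, and it raises their import and synthesis. Of 24 measured genes, 17 (70.8%) were higher in both numbers and 1 lower in both, against 31.2% and 28% of all genes. Their median was 0.14, and none of them passed an unadjusted limma p of 0.05. The median was 0.03 without deficient mock replicate 1, 0.04 without deficient miR-17 replicate 2, 0.33 without deficient mock replicate 2 and 0.29 without deficient miR-17 replicate 1. Nupr1, a stress-induced chromatin protein, read 5.01 and 6.24 with mock and 5.98 and 7.20 with miR-17. Its replicate differences were 0.98 and 0.96, although the groups overlapped. Asns, asparagine synthetase, differed by 0.47 and 0.41. Slc7a5, a transporter of large neutral amino acids, differed by 0.45 and 0.37, and Chac1, which degrades glutathione, by 0.43 and 0.68.

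Cth, which makes cysteine from cystathionine, had the largest fitted difference of all genes and was picked for that. It read 4.74 and 5.95 with mock and 6.47 and 7.71 with miR-17, and 5.15 and 6.32 in wild type. Its differences were 1.72 and 1.76, and the miR-17 arrays lay above all other arrays. The fitted value was 1.74 ± 0.55 with an adjusted limma p of 1, since replicate numbers differed by over 1 log2 unit in each group. Sterol and fatty acid synthesis genes were higher in both numbers for 14 of 21 (66.7%) and lower in both for 1. Of all genes 31.2% were higher and 28% lower in both. The sterol list's median was 0.11. That median was -0.05 without deficient mock replicate 1, 0.01 without deficient miR-17 replicate 2, 0.31 without deficient mock replicate 2 and 0.25 without deficient miR-17 replicate 1. Scd1, the stearoyl-CoA desaturase, differed by 0.67 and 0.49.

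The TGF-beta pathway held genes on both sides of its receptor. TGF-beta binds Tgfbr2, which activates Tgfbr1 and then Smad2 and Smad3, and the Id genes are targets of the related BMP branch. Of 28 measured genes, 16 (57.1%) were higher in both numbers and 6 lower in both, against 31.2% and 28% of all genes. The list's median was 0.12. That median was 0.03 without deficient miR-17 replicate 1 and 0.05 without deficient mock replicate 2. Among ligand-handling proteins, Ltbp3, which tethers latent TGF-beta, read 5.68 and 5.71 with mock and 6.22 and 6.27 with miR-17, a difference of 0.55 ± 0.21. The ligand gene Tgfb1 differed by 0.17 and 0.12. Among receptors, Bmpr1a differed by 0.27 and 0.48, with its 5 probe sets from 0.00 to 0.37, while Tgfbr1 differed by 0.02 and 0.20. Smad3 differed by -0.08 and 0.21 and Smad2 by -0.02 and -0.25. Among targets, Id3, an inhibitor of E proteins, read 6.94 and 6.28 with mock and 7.31 and 7.30 with miR-17, and Itgae (CD103) differed by -0.68 and -0.06.

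Members of the tumour necrosis factor superfamily, which costimulate T cells, were mostly flat with a few higher. Of 17 measured, 8 were higher (47.1%) and 2 lower (11.8%) in both numbers, against 31.2% and 28% of all genes. Tnfsf14 (LIGHT) read 6.02 and 6.41 with mock and 6.76 and 7.03 with miR-17, a difference of 0.68 ± 0.17. Tnfrsf25 (DR3) read 6.53 and 6.80 with mock and 7.31 and 7.34 with miR-17, a difference of 0.66 ± 0.15. In both genes the miR-17 arrays were the highest of the 6. Cd70 lay lower, by -0.22 and -0.24.

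Cytokine signalling through the common gamma chain gave 7 of 23 genes higher in both numbers and 7 lower in both. Each was 30.4%, near the 31.2% and 28% of all genes. Besides Jak1, the lower ones included Socs3, a feedback inhibitor of cytokine receptors, at -0.46 and -0.41. On the higher side Pim2, a survival kinase induced by these cytokines, read 7.62 and 8.18 with mock and 8.34 and 9.03 with miR-17, with wild type at 8.86 and 9.03. Il7r, the IL-7 receptor chain, read 9.49 and 9.47 with mock and 9.51 and 9.46 with miR-17. All 4 deficient arrays of Il7r stood together, below the wild-type 10.94 and 10.74.

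Effector and regulatory genes fixed for naming had small differences, or ones uneven between replicate numbers. Ifng and Tbx21, also fixed, are given above. Il10, an anti-inflammatory cytokine, read 3.69 and 3.47 with mock and 3.78 and 3.45 with miR-17, below the lower quartile of its arrays, against 8.32 and 8.02 in wild type. Il4, Il13 and Gata3, which mark Th2 cells, differed by 0.07 ± 0.34, 0.23 ± 0.37 and 0.14 ± 0.15. In replicates 1 and 2, Il4 differed by 0.40 and -0.26 and Gata3 by 0.36 and -0.07. Il2, the growth factor of activated T cells, differed by -0.33 and 0.44. Ctla4, an inhibitory receptor, read 9.27 and 9.26 with mock and 9.43 and 9.38 with miR-17, against 10.51 in both wild-type arrays. For Il13 and Ctla4 groups did not overlap on the higher side, where 15% of all genes did so. Foxp3, the regulatory T cell factor, read 3.42 to 3.89 in the 4 deficient arrays, at the bottom of the range, and differed by -0.48 and -0.08. For Il10, Il7r and Ctla4, deficient cells with miR-17 stayed closer to deficient mock than to wild type.

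The smallest limma p-values on the higher side belonged to Plek, Lgals7 and Slc2a3, the last described with glycolysis above. Plek (pleckstrin), a protein kinase C substrate of blood cells, read 6.24 and 6.21 with mock and 7.10 and 7.17 with miR-17, above the wild-type 6.77 and 6.71. Its difference was 0.91 ± 0.12, with an unadjusted p of 8.6e-05 and an adjusted p of 0.581, and its 3 probe sets ran from 0.41 to 0.91. Lgals7, a galectin, read 6.03 and 6.17 with mock and 6.95 and 6.97 with miR-17. Sdc4, the cell-surface proteoglycan syndecan-4, read 4.70 and 4.80 with mock, 5.78 and 5.73 with miR-17, and 7.20 and 7.76 in wild type, with its second probe set at 0.05. In Plek, Lgals7 and Sdc4 the groups did not overlap.

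Further genes on that side fell into loose kinds, with no theme tested. Membrane transport was represented by Aqp3, a water and glycerol channel, at 1.15 and 0.62, and Tpcn1, an endolysosomal channel, at 0.69 and 0.60. The 3 probe sets of Tpcn1 ran from -0.05 to 0.64 and averaged 0.20. Energy and redox enzymes included creatine kinase B (Ckb) at 0.57 ± 0.13 and Cyb5r3 at 0.47 ± 0.10, whose 4 probe sets ran from -0.07 to 0.47 and averaged 0.29. Cytoskeleton and junction genes included Gas2 at 0.58 ± 0.14 and plakophilin Pkp2 at 0.87 ± 0.21, whose 4 probe sets ran from -0.10 to 0.93 and averaged 0.41. Crabp2, which carries retinoic acid, lay at 0.90 ± 0.22. Hdac7, a class IIa histone deacetylase of lymphocytes, lay at 0.42 ± 0.10, and Ywhae, a 14-3-3 protein, at 0.29 ± 0.07. Plk2, a kinase induced by stress, lay at 0.79 and 0.78, Nkg7, a granule protein of cytotoxic lymphocytes, at 0.52 and 0.81, and the protease Ctsl at 0.54 and 0.66.

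On the lower side Ginm1, a membrane glycoprotein, had the largest fitted difference, -1.12 ± 0.18, from 6.58 and 7.00 with mock to 5.55 and 5.79 with miR-17. Both of its probe sets lay beyond -1. Ms4a4c, a membrane protein of the MS4A family, read 9.83 and 9.51 with mock, 8.67 and 8.75 with miR-17, and 7.55 and 7.41 in wild type. Its difference was -0.96 ± 0.13, with an unadjusted limma p of 9.2e-05 and an adjusted p of 0.581. The miR-17 arrays of Ms4a4c thus stood between the other groups, with no overlap.

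Anapc11, the RING subunit of the anaphase-promoting complex, read 9.54 and 9.56 with mock and 8.65 and 8.82 with miR-17, a difference of -0.81 ± 0.13. Cep55, which acts at abscission, differed by -0.56 ± 0.10, and Kif23, a kinesin of the cytokinetic midzone, by -0.61 ± 0.13. The 3 probe sets of Kif23 ran from -0.61 to 0.06 and averaged -0.34. Ankib1, a ubiquitin ligase, read 8.18 and 8.28 with mock and 7.35 and 7.53 with miR-17. In the mitosis list as a whole, 7 of 29 genes were higher (24.1%) and 6 lower (20.7%) in both numbers, against 31.2% and 28% of all genes.

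The remaining named genes on this side had varied roles. Xrcc4, of DNA end joining, differed by -0.74 ± 0.14, and Dpp3, a peptidase, by -0.66 ± 0.13, with its second probe set at -0.11. Crot, a peroxisomal carnitine acyltransferase, differed by -0.67 ± 0.12, and Sar1b, the GTPase of COPII vesicles, by -0.53 ± 0.10. Tmem123 differed by -0.64 ± 0.10, Jpt1 by -0.50 ± 0.09 and the nuclear import receptor Kpna2 by -0.36 ± 0.07. Sesn3, a sestrin induced by FoxO factors, differed by -0.92 and -0.68, with replicate 1 arrays above replicate 2 arrays in each group. All 3 probe sets of Jpt1 lay between -0.67 and -0.50.

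Where wild type stood was mixed among the genes that differed by 0.5 or more in both numbers. Of the 47 higher genes, 17 had a miR-17 mean between the wild-type and deficient mock means, 20 a miR-17 mean beyond wild type on the far side from mock, and 10 a mock mean between the other groups. Of the 34 lower genes, these numbers were 12, 15 and 7. Slc2a3, Sdc4 and Ms4a4c are examples of the first kind, Plek, Cth and Anapc11 of the second, and Tgfbr2, Jak1 and Aqp3 of the last. Since the deficient mock arrays enter both comparisons, these positions are given as counts with no test.

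Housekeeping lists stood near all genes. The medians were 0.02 for 28 DNA replication genes, 0.01 for 29 mitosis genes, -0.02 for 24 ribosomal protein genes, 0.01 for 25 proteasome genes and 0.03 for 29 respiratory chain genes. Leaving out 1 array put them between -0.07 and 0.11, on either side of 0 for all but the ribosomal proteins. T cell receptor signalling had a median of -0.09. Of its 21 genes, 11 (52.4%) were lower in both numbers and 2 higher in both, against 28% and 31.2% of all genes. That median was -0.02 without deficient mock replicate 1 and 0.01 without deficient miR-17 replicate 2. Its members with the widest differences were Cd247, the zeta chain, at -0.26 and -0.13, and Fyn, a proximal kinase, at -0.20 and -0.10.

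**Figure D5:**
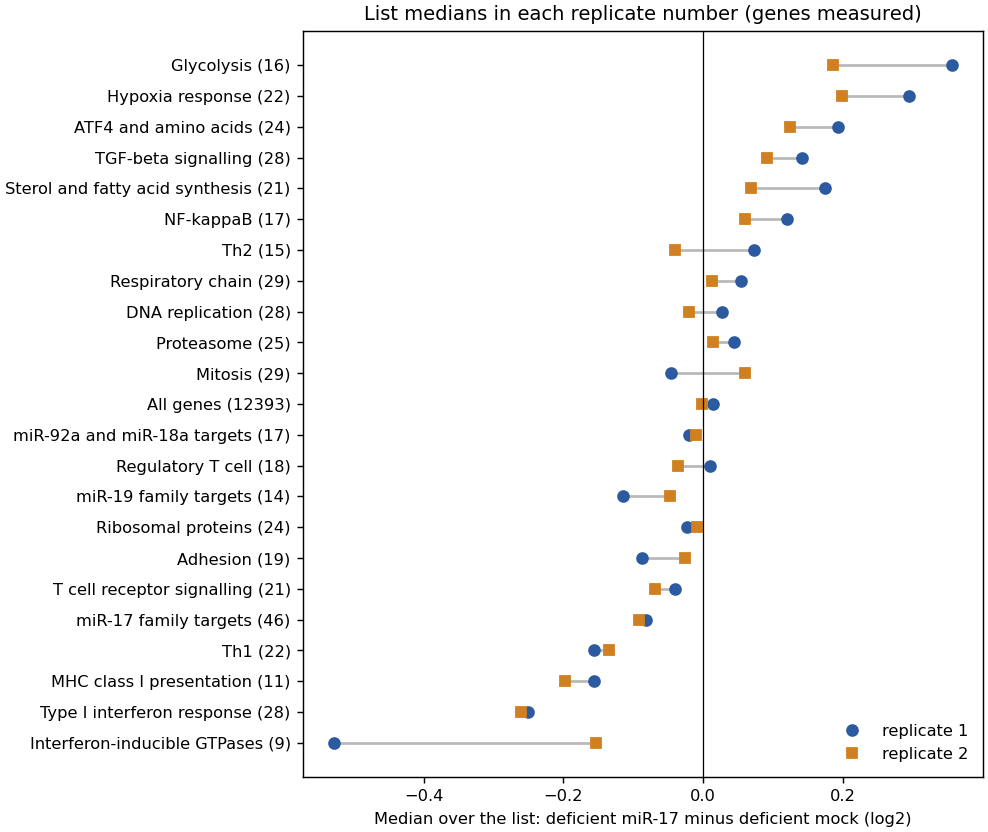
Each line is a gene list with the number of genes measured, and points give its median difference (deficient miR-17 minus deficient mock, log2, horizontal axis) in replicate 1 (circle) and replicate 2 (square). Glycolysis and hypoxia medians lie right of 0 in both numbers and the interferon lists left of 0 in both, while all genes together lie at 0.01 and -0.00.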

How the data were processed

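Expression in 6 cultures was read on 1-colour arrays. The authors deposited log2 probe set intensities made with RMA, per the submitters' processing notes; no version was given there. RMA subtracts background, quantile normalizes and summarises probes, so a shift shared by all genes would not show. No depth applies to arrays, whose number limits precision. Of 22690 probe sets, 64 controls were left out. Platform annotation gave 1 symbol to 20380 probe sets, several to 691 and none here to 1555. Each of 12393 genes was represented by the probe set with the highest 6-array mean.

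Groups came from the titles. All 6 arrays were fitted by group with limma 3.58.1 (R 4.3.3) with an intensity trend, without a block, with Benjamini-Hochberg adjustment over 22626 probe sets. Within-number differences were subtracted directly. The script was tested on simulated data. Alternatives were a replicate block, the 4 deficient arrays alone, no trend, a filter on dim probe sets, 2 rescalings, genes in place of probe sets, other size thresholds and each array left out.

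The members and the 52 gene lists were chosen with earlier results of these data known. Named genes were the 15 per direction with the smallest p and 1 sign in both numbers, 16 fixed genes, and up to 2 members per list at 0.5 or more in both. Other genes were picked as examples after their values were seen. Promoters and miRNAs are from RefSeq.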

Additional observations from a re-analysis of the deposited data

Results flagged for a closer look

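Both results here concern control probe sets, which no comparison above used, and in both the 2 deficient miR-17 arrays lay above the 2 deficient mock arrays. They were picked for that among the classes of control. The mean of the 3 probe sets for 18S ribosomal RNA read 6.85 and 6.98 with mock and 7.05 and 7.09 with miR-17, a mean difference of 0.157. The mean of the 4 probe sets for pyruvate carboxylase, a biotin-carrying enzyme, read 5.67 and 5.73 with mock and 5.89 and 5.78 with miR-17, a mean difference of 0.137. Of 12393 genes, 15% lay higher without overlap between the groups. No other class of control had both miR-17 arrays above both mock arrays. Mean differences were -0.03 for actin, 0.03 for Gapdh, 0.04 for the transferrin receptor and 0.03 for murine repeats. The poly-A spikes, added to the RNA before labelling, differed by 0.04 and -0.01 in replicates 1 and 2, and the hybridization spikes by -0.02 and -0.21. The part of these controls in the gene results was not tested.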

How the results depend on the processing

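With the replicate number as a block, limma called 4 probe sets higher and 7 lower, and the 4 deficient arrays alone with the replicate block, a fit chosen after seeing the data, gave 164 and 129. Those 11 probe sets, which include sets of Jpt1, Anapc11, Pygl, Ms4a4c, Ginm1, Cth, Trat1, Plek and Sesn3, all belonged to the 0.5-in-both class. The titles do not say what a replicate number marks, and 2 pairs cannot settle it. Deviations of same-numbered arrays correlated at 0.59 between the deficient groups and at 0.38 and 0.49 between each of them and wild type, and each deficient array correlated best with the array of its own number. Every other setting gave 0 calls in each direction, leave-one-out fits included (0 to 0), with 272 to 564 probe sets higher and 284 to 523 lower at an unadjusted p under 0.05 when 1 array was left out.

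The counts at 0.5 in both numbers, 47 and 34, became 307 and 253 at 0.25, and 1 and 2 at 1 log2 unit. Averaging a gene's probe sets gave 34 higher and 22 lower genes. Filtering and rescaling gave 37 to 43 higher and 30 to 39 lower. Settings that alter only the standard error, or leave out a wild-type array, cannot change a gene's sign. Of 60 named genes, 52 kept their sign in every setting run, and Bcl2l11, Cdkn1a, Creb1, Gata3, Il10, Il2, Il4 and Il7r did not. The cause of these shifts was not tested. For Tgfbr2 values ran from -0.77 to -0.20, for Slc2a3 from 0.50 to 1.12, for Nupr1 from 0.35 to 1.58 and for Ifit1 from -1.38 to -0.26. Signal near the lower quartile limits Il10, Foxp3 and Ifng. The filter on dim probe sets left out these genes, and Ifit3, Ifit1, Ctsl and Pkp2 as well.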

Other observations

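Helper lineages other than Th1 had no common lean. Of 15 Th2 genes, 5 were lower (33.3%) and 2 higher (13.3%) in both numbers, against 28% and 31.2% of all genes. Of 18 regulatory T cell genes 7 were lower (38.9%) and 6 higher (33.3%). Nuclear factor kappa B genes were higher in both numbers for 10 of 17 (58.8%), with a median of 0.11, or 0.04 without deficient miR-17 replicate 1. Relb, a subunit of the non-canonical pathway, read 6.92 and 6.85 with mock and 7.38 and 7.12 with miR-17. Adhesion genes were lower in both for 10 of 19, with a median of -0.08 that was 0.01 without deficient mock replicate 1 and -0.17 without deficient miR-17 replicate 1. Ribosomal protein genes were lower in both for 12 of 24 (50%), at a median of only -0.02. Targets of Creb were higher in both for 7 of 17 (41.2%) and lower in both for 4 (23.5%). Their median was 0.02, and it was -0.02 without either deficient mock array.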
